A study of Mus musculus with 8 samples.

Results

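The voltage-gated calcium channel pore subunits examined here are 8 genes, Cacna1a, Cacna1b, Cacna1c, Cacna1d, Cacna1e, Cacna1g, Cacna1h and Cacna1i, taken by symbol from a table of 24015 gene entries. They were followed across 8 RNA-seq libraries of brain tissue from postnatal day 7 (P7) C57BL/6N mice carrying 0, 1 or 2 copies of a deletion of the 1b regulatory interval of Scn1a, which encodes a neuronal sodium channel. The line was made with Cas9, and the deletion is present in every cell of the body, not in neurons alone. Wild-type (WT) mice gave 2 libraries, both from males, heterozygous 1b+/- mice gave 4, of which replicates 1 and 2 were from males and replicates 3 and 4 from females, and homozygous 1b-/- mice gave 2, both from females. Sex and genotype therefore cannot be told apart between WT and 1b-/-. For the tissue, the labels give hippocampus but the methods of the study give forebrain. Nothing in the labels says that libraries of 1 group came from separate litters, so p-values measure only the spread between these libraries.

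Each of these genes encodes the large pore-forming subunit of a channel that opens when the membrane depolarises and lets calcium into the cell. Cacna1c and Cacna1d encode L-type channels, which sit mostly on cell bodies and dendrites and link activity to transcription. Cacna1a (P/Q-type) and Cacna1b (N-type) encode the channels that trigger transmitter release at presynaptic terminals, and Cacna1e encodes the R-type channel. Cacna1g, Cacna1h and Cacna1i encode T-type channels, which open near the resting potential and shape burst firing. Variants in several of these genes are linked to epilepsy, ataxia or migraine.

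The libraries held 2947770 to 20878772 counted reads, so that 3 counts correspond to 0.145 to 1.002 CPM (reads of a gene scaled to a common library size). All 8 members passed the expression filter of 1 CPM in at least 1 library, as did 15588 entries in all. Scn1a was measured at 45.1 and 40.5 CPM in WT, at 26.7, 22.2, 25.4 and 15.7 CPM in 1b+/-, and at 3.18 and 2.003 CPM in 1b-/-, in the order of the genotype labels. Its log2 fold change was -3.97 (SE 0.32) in 1b-/- against WT, with an adjusted p of 5.96e-04 by edgeR's quasi-likelihood test. In 1b+/- it was -0.90, with an adjusted p of 0.381 in the same edgeR fit. Cortical Tbr1 (mean 269 CPM), Bcl11b (676 CPM), which striatum also expresses, and striatal Drd1a (21.7 CPM) were present beside the hippocampal genes Zbtb20 (73.5 CPM) and Prox1 (19.7 CPM), while the dentate gene C1ql2 had a mean of 1.15 CPM. The 9 genes of the cerebellum list summed to 313 to 633 CPM, led by Zic1 (mean 211 CPM), Zic2 (141 CPM), Cbln1 (70.8 CPM) and Calb1 (35.7 CPM), while Gabra6, Pcp2, Cbln3 and Pvalb reached no more than 0.33, 0.77, 2.12 and 0.30 CPM and Barhl1 reached 14.3 CPM in a 1b+/- library. Genes of cortex and striatum were thus present beside those of hippocampus.

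In these libraries the R-type gene was the most abundant pore subunit and the T-type gene Cacna1i the least. Levels of different genes were compared as CPM per kilobase of exon, averaged over the 8 libraries. Cacna1e stood at 16.1 ± 2.18 (SD, n = 8), Cacna1c at 10.6 ± 0.702 and Cacna1b at 8.06 ± 1.41. Cacna1h followed at 7.96 ± 1.28, Cacna1d at 4.62 ± 0.346, Cacna1a at 4.24 ± 0.548, Cacna1g at 3.00 ± 0.755 and Cacna1i at 1.36 ± 0.266. The order at its ends repeated across libraries, with Cacna1e above Cacna1c and Cacna1c above Cacna1b in 8 of 8 libraries. Likewise, Cacna1a was above Cacna1g and Cacna1g above Cacna1i in 8 of 8. The exon length used for a gene is the same in every library, so this agreement does not test the lengths. Cacna1b and Cacna1h were not separated, since their means differed by 0.0998 against a pooled SD of 1.35 and Cacna1b was the higher in 5 of 8 libraries. Cacna1d and Cacna1a differed by 0.374 against a pooled SD of 0.459, with Cacna1d higher in 7 of 8.

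**Figure D1:**
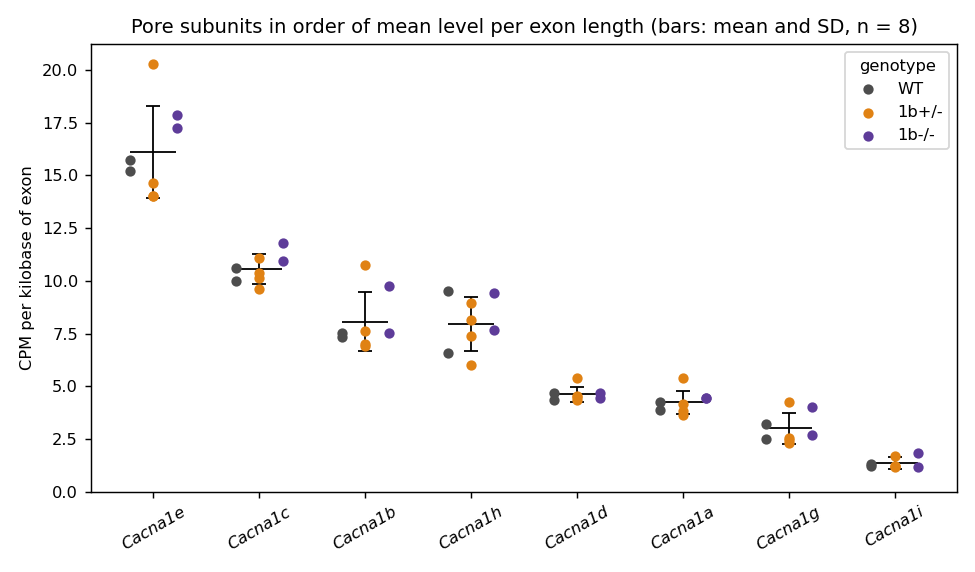
Level of each pore subunit in CPM per kilobase of exon (linear axis) in order of the mean over 8 libraries, with 1 point per library coloured by genotype and a bar for the mean with its SD. Cacna1e lies above the other 7 genes in every library, at a mean of 16.1, while Cacna1b and Cacna1h overlap.

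By channel class, the P/Q-, N- and R-type genes together made up 50.8% ± 2.2 (SD, n = 8) of the summed level per kilobase of the 8 members, the L-type genes 27.2% ± 1.48 and the T-type genes 21.95% ± 2.74. Class shares were close to each other across genotypes. The P/Q-, N- and R-type share averaged 50.02% in WT, 51.0% in 1b+/- and 51.1% in 1b-/-. The L-type share averaged 27.5%, 27.4% and 26.6% in the same order, and the T-type share 22.5%, 21.5% and 22.3%. Over single libraries these shares ranged from 48.1% to 55.4%, from 25.4% to 29.4% and from 17.1% to 25.1%.

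Ratios between members of a class showed which gene led it. Cacna1b exceeded Cacna1a per kilobase by 1.90-fold ± 0.179 (SD, n = 8), with a range of 1.67 to 2.21. Among the L-type genes, Cacna1c exceeded Cacna1d by 2.301-fold ± 0.235, with a range of 1.87 to 2.66. Of the T-type genes, Cacna1h exceeded Cacna1g by 2.72-fold ± 0.431 and Cacna1g exceeded Cacna1i by 2.19-fold ± 0.202. The ratio of the R-type to the N-type gene was the widest of the 5 ratios taken, at 2.05 ± 0.460, and ran from 1.36 in 1b+/- replicate 1 to 2.93 in 1b+/- replicate 2.

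No pore subunit passed the test for a change with genotype. Of the 8 members, 0 passed an adjusted p of 0.05 in heterozygotes against WT, homozygotes against WT or homozygotes against heterozygotes by edgeR's quasi-likelihood test, where 0.0834%, 0.00642% and 0.00642% of all genes tested passed. At an unadjusted p under 0.05 the count was also 0 in each comparison, against 4.34%, 1.64% and 1.23% of all genes. The likelihood ratio test of edgeR and DESeq2, run on the same counts, called 0 as well. Shares of all genes called by those tests are not reported here. With groups of 2, 4 and 2, the 95% intervals of the 8 fold changes spanned 0.685 to 1.54 for heterozygotes over WT, 0.729 to 1.88 for homozygotes over WT and 0.757 to 1.71 for homozygotes over heterozygotes. These are the widest ends over the 8 genes, and single members were narrower, such as Cacna1c at 0.824 to 1.21 for heterozygotes over WT. In whole tissue, fewer cells of a type and less RNA per cell cannot be told apart.

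**Figure D2:**
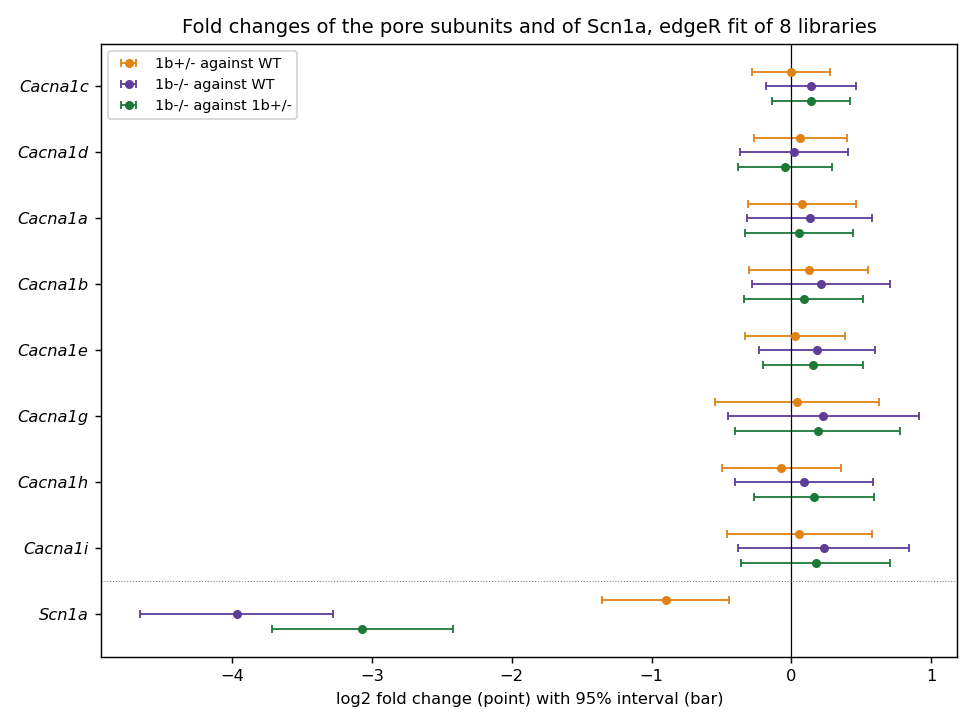
Log2 fold change of each pore subunit, and of Scn1a below the dotted line, in the 3 genotype comparisons, with points for the estimates and bars for the 95% intervals of edgeR's quasi-likelihood fit. Every interval for the 8 members crosses 0, and the estimates run from -0.07 to 0.23.

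The L-type genes were the steadiest members. Cacna1c, the principal L-type channel of brain and heart, was at 93.3 and 88.3 CPM in WT, at 97.8, 89.5, 84.5 and 91.5 CPM in 1b+/-, and at 96.5 and 104 CPM in 1b-/-. Both 1b-/- libraries were above both WT libraries, but 1b+/- replicate 1 was above 1 of them. Its log2 fold change in 1b-/- against WT was 0.14 (SE 0.15, 95% interval -0.18 to 0.46), and in 1b+/- against WT it was -0.00075 (SE 0.13, 95% interval -0.28 to 0.28). Cacna1d, whose channel opens at more negative voltages than that of Cacna1c, was at 43.7 and 40.5 CPM in WT, at 41.98, 50.6, 42.6 and 40.7 CPM in 1b+/-, and at 43.6 and 41.6 CPM in 1b-/-. All of its groups overlapped, and 1b+/- replicate 2 lay well above the rest. The log2 fold changes of Cacna1d were 0.06 (SE 0.15) in 1b+/- and 0.02 (SE 0.18) in 1b-/- against WT.

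Presynaptic Cacna1a and Cacna1b shared a high library in 1b+/-. Cacna1a was at 43.99 and 48.6 CPM in WT, at 61.5, 47.3, 43.6 and 41.4 CPM in 1b+/-, and at 50.7 and 50.6 CPM in 1b-/-. The 1b-/- libraries lay just above WT, and 1b+/- replicate 1 lay above both groups. Cacna1b was at 73.1 and 74.8 CPM in WT, at 107, 68.8, 75.95 and 69.4 CPM in 1b+/-, and at 74.9 and 97.1 CPM in 1b-/-. The lower 1b-/- library, at 74.92 CPM, was barely above the higher WT library, at 74.78 CPM, so the order of these groups for Cacna1b rests on a very small gap. Log2 fold changes in 1b-/- against WT were 0.13 (SE 0.21) for Cacna1a and 0.21 (SE 0.23) for Cacna1b. In 1b+/- against WT they were 0.08 (SE 0.18) and 0.13 (SE 0.19).

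Cacna1e, the R-type gene, had the largest counts of the family, 534 to 3677 reads per library. It was at 193 and 199.97 CPM in WT, at 186, 257, 178 and 178 CPM in 1b+/-, and at 227 and 219 CPM in 1b-/-. Both 1b-/- libraries exceeded both WT libraries, 3 of the 4 1b+/- libraries were below WT, and 1b+/- replicate 2 was the highest of all 8. Its log2 fold change was 0.18 (SE 0.19, 95% interval -0.23 to 0.60, adjusted p of 1 by edgeR's quasi-likelihood test) in 1b-/- against WT and 0.03 (SE 0.16) in 1b+/- against WT. Without 1b+/- replicate 2, the log2 fold change in 1b-/- against 1b+/- went from 0.15 to 0.30. The quasi-likelihood test of edgeR then gave an unadjusted p of 0.0320 (adjusted p 0.999). That was the smallest unadjusted p of 400 alternative values of single members, reached by leaving out the library highest for Cacna1e.

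Of the T-type genes, Cacna1g and Cacna1i had the widest spread of the family. Cacna1g, abundant in thalamic relay neurons, was at 25.1 and 32.2 CPM in WT, at 42.8, 25.4, 23.3 and 24.7 CPM in 1b+/-, and at 27.1 and 40.3 CPM in 1b-/-. A single library in each mutant genotype stood above WT and the others lay within or below the WT range. Cacna1h, also known from sensory neurons, was at 64.3 and 93.01 CPM in WT, at 87.5, 58.98, 72.4 and 79.8 CPM in 1b+/-, and at 75.2 and 92.1 CPM in 1b-/-. The WT libraries alone spanned most of the range of Cacna1h over all 8 libraries. Cacna1i, the T-type gene with the slowest channel, was at 12.2 and 13.03 CPM in WT, at 16.8, 11.3, 11.8 and 12.02 CPM in 1b+/-, and at 11.8 and 18.3 CPM in 1b-/-. As for Cacna1g, 1 library in each mutant genotype was high and the other libraries were near the WT values. The log2 fold changes in 1b-/- against WT were 0.23 (SE 0.31), 0.09 (SE 0.23) and 0.23 (SE 0.28) for Cacna1g, Cacna1h and Cacna1i. Against WT, 1b+/- gave 0.04 (SE 0.27), -0.07 (SE 0.19) and 0.06 (SE 0.24).

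**Figure D3:**
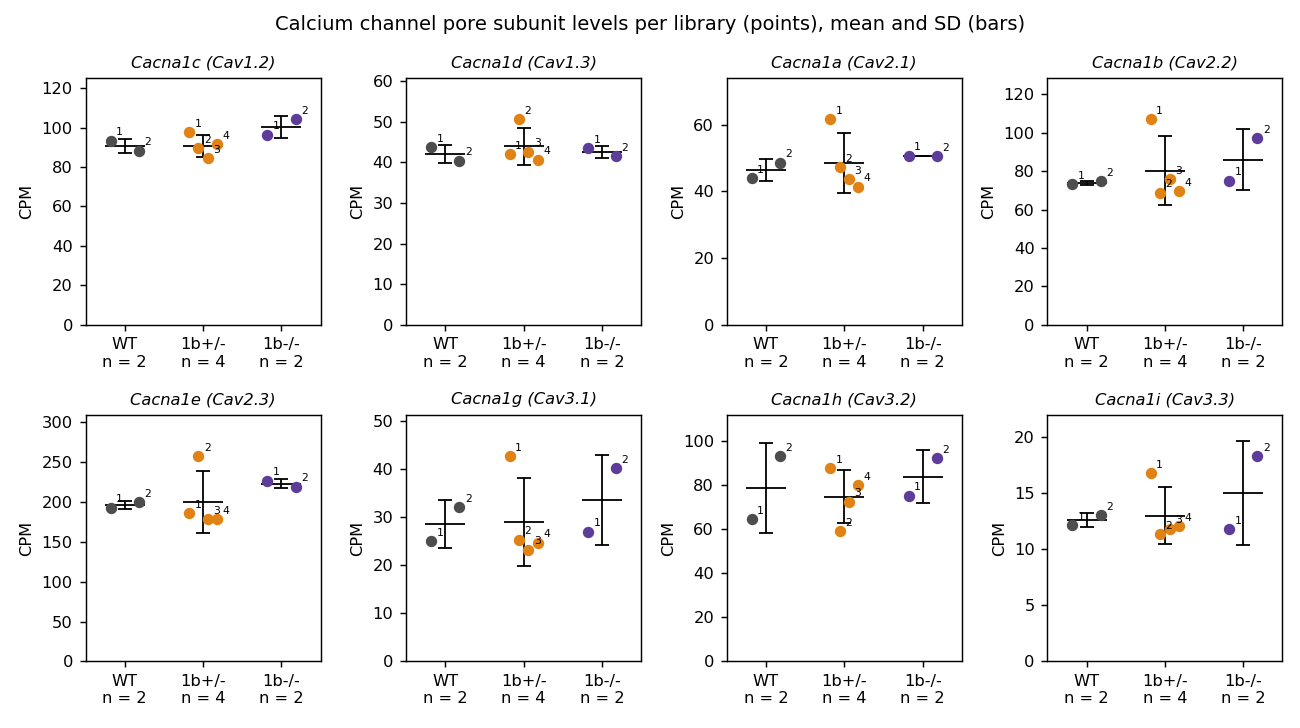
CPM of each pore subunit in every library by genotype, 1 panel per gene on a linear axis from 0, with numbered points for replicates and bars for the group mean with its SD. Within 1b+/-, replicate 1 is the highest library for Cacna1a, Cacna1b, Cacna1c, Cacna1g, Cacna1h and Cacna1i, and replicate 2 for Cacna1d and Cacna1e.

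In direction, the estimates leaned upward in 1b-/-. The log2 fold change against WT was above 0 for 8 of 8 members, with a median of 0.16, where 48.9% of all genes were above 0 and the median of all genes was -0.01. For homozygotes against heterozygotes it was above 0 for 7 of 8 (49% of all genes, member median 0.15), and for heterozygotes against WT for 6 of 8 (52.1%, member median 0.05). Lists of other cells went both ways in 1b-/- against WT. Above 0 were 8 of 8 smooth muscle and pericyte genes (median 0.33) and 7 of 7 endothelial genes (median 0.30). So were 7 of 8 meninges genes (median 0.22) and 6 of 9 oligodendrocyte lineage genes (median 0.20). Leaning downward, 2 of 8 astrocyte genes (median -0.13) and 1 of 8 choroid plexus genes (median -0.31) were above 0. Of the pan-neuronal genes, 2 of 9 were above 0 (median -0.07). Above 0 were 5 of 9 interneuron genes (median 0.13) and 6 of 9 striatum genes (median 0.11). In the neocortex list 4 of 8 were above 0 (median -0.03), in hippocampus 4 of 10 (-0.07) and in thalamus 2 of 8 (-0.27). For homozygotes against heterozygotes, 9 of 9 interneuron genes (median 0.25), 7 of 9 pan-neuronal genes (0.10) and 0 of 8 astrocyte genes (-0.34) were above 0. The summed endothelial list was 268 to 277 CPM in WT, 299.8 to 418 CPM in 1b+/- and 281 to 393 CPM in 1b-/-, with 0 of its genes at 0, and the pan-neuronal list 6506 to 6520 CPM, 5386 to 6443 CPM and 6075 to 6601 CPM. The smooth muscle and pericyte list was 175 to 192 CPM in WT, 205 to 259 CPM in 1b+/- and 196 to 247 CPM in 1b-/-. Their part in the members' direction was not tested. Comparisons with WT share the 2 WT libraries, and the members vary together over libraries, so these counts do not stand for 8 separate observations. Without 1b-/- replicate 2, 5 of 8 members were above 0 in 1b-/- against WT, with a median of 0.03, and without 1b+/- replicate 1, 2 of 8 were above 0 in 1b+/- against WT. For Cacna1a, Cacna1b, Cacna1c and Cacna1e both 1b-/- libraries were higher than both WT libraries, 4 of 8 members, where 23.6% of all genes had groups without overlap and 11.6% had 1b-/- wholly higher. No member had groups without overlap in 1b+/- against WT (12.3% of all genes) or between the mutant genotypes (7.39%).

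A straight line over 0, 1 and 2 deleted alleles gave slopes of 0.01 to 0.11 log2 units per allele for the members, with 0 of 8 called by edgeR's quasi-likelihood test where 0.0385% of all genes were called. The smallest unadjusted p was 0.329, so the count at an unadjusted p under 0.05 was also 0, against 1.73% of all genes. All 8 slopes were above 0, as were 49.6% of all slopes. Within 1b+/-, the genotype with both sexes, females were lower than males for 7 of 8 members, from -0.52 for Cacna1g to 0.05 for Cacna1h on the log2 scale, where 49.3% of all genes were higher in females. Again 0 of 8 passed in that comparison, where 0.0321% of all genes did, and the smallest unadjusted p was 0.0857, for Cacna1a (log2 difference -0.35, SE 0.19), while 2.66% of all genes were under 0.05 before adjustment. Here males are 1b+/- replicates 1 and 2, and for all 8 members 1 of them was the highest 1b+/- library. With sex as a covariate, the log2 fold changes in 1b-/- against WT were between 0.04 for Cacna1h and 0.74 for Cacna1g, and 0.50 for Cacna1e. In that fit 0 of 8 were called, with a smallest adjusted p of 0.9999 by edgeR's quasi-likelihood test. Its sex term rests on the 1b+/- libraries alone, because WT held only males and 1b-/- only females. Within males, log2 fold changes of heterozygotes over WT ran from -0.09 to 0.27. Within females, those of homozygotes over heterozygotes ran from 0.033 to 0.48, and 0 of 8 passed in either. Shares of all genes passing in the covariate and single-sex fits are not reported here.

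The spread of most members over the 8 libraries exceeded counting error. The coefficient of variation was 25.2% for Cacna1g, where counting alone gives 6.94%, and 19.6% for Cacna1i, where it gives 10.4%. It was 17.5% for Cacna1b, 16.1% for Cacna1h, 13.5% for Cacna1e and 12.9% for Cacna1a. Cacna1c, at 6.64%, and Cacna1d, at 7.502%, lay nearest their counting errors of 3.94% and 5.79%. The median over the 11230 genes with a mean of at least 5 CPM was 14.7%, so the L-type genes varied less than that median and Cacna1g, Cacna1i, Cacna1b and Cacna1h more. These counting errors leave out amplification, because no molecular identifiers were used. The intervals of the fold changes are not counting errors, since edgeR's fit takes in the spread between libraries.

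Several members moved together from library to library. Over the 8 libraries, Pearson's r of log2 CPM was 0.94 for Cacna1g with Cacna1i, 0.93 for Cacna1b with Cacna1i, 0.91 for Cacna1b with Cacna1g, 0.84 for Cacna1a with Cacna1g and 0.82 for Cacna1a with Cacna1b. Cacna1e followed Cacna1d instead (0.74), and Cacna1d ran against Cacna1h (-0.83). Of the 28 pairs, 19 had an r above 0, with a median of 0.50 over all pairs. The points of every pair are the same 8 libraries, with the same depths and tissue make-up, and these values are a description. Cacna1g and Cacna1i were high in the same libraries, 1b+/- replicate 1 and 1b-/- replicate 2, whereas Cacna1d and Cacna1e were highest in 1b+/- replicate 2.

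**Figure D4:**
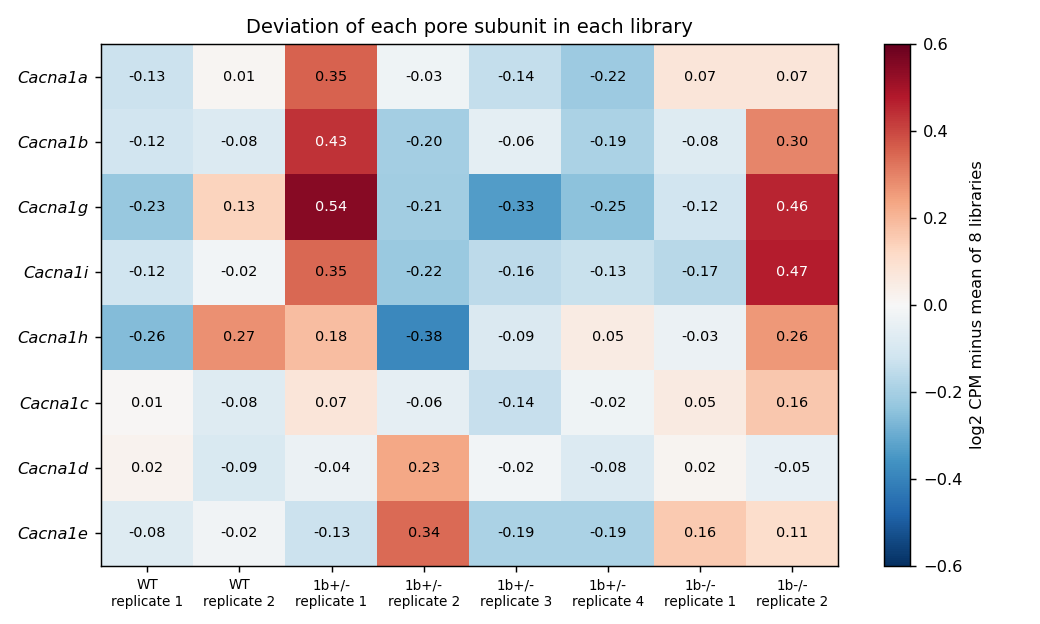
Deviation of each pore subunit in each library from its own mean over 8 libraries, on the log2 CPM scale, as a coloured grid of 8 genes by 8 libraries. Cacna1a, Cacna1b, Cacna1g and Cacna1i are raised together in 1b+/- replicate 1, and Cacna1d and Cacna1e in 1b+/- replicate 2.

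Against the mean of the other 3 1b+/- libraries, replicate 1 was higher by 1.75-fold for Cacna1g, 1.498-fold for Cacna1b, 1.43-fold for Cacna1i and 1.39-fold for Cacna1a. Replicate 2 was higher by 1.42-fold for Cacna1e and 1.21-fold for Cacna1d. Marker lists of brain regions and other cells also differed in these libraries. For 1b+/- replicate 1 the midbrain and hindbrain list summed to 62.8 CPM against 2.67 to 21.1 CPM elsewhere, the meninges list was 2217 CPM there and 570 to 1177 CPM elsewhere, and the neocortex list was 1868 CPM there and 2109 to 2782 CPM elsewhere. In 1b+/- replicate 2 the choroid plexus list summed to 109 CPM, against 248 to 1072 CPM in the other 7, and the cerebellum list, in which Zic1 leads, to 633 CPM against 313 to 510 CPM. The part of tissue make-up in the members' values was not tested.

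The genes whose libraries followed each member most closely, among 11210 with a mean of at least 5 CPM and a usable symbol, were Mcoln1 and Nhsl2 for Cacna1a (r of 0.94 for both), Itfg2 and Car11 for Cacna1b (0.98 and 0.96), and Thoc3 and 1110038B12Rik for Cacna1c (0.86 and 0.85). For Cacna1d they were Brca2 and Rbpj (0.99 and 0.97) and for Cacna1e Zbtbd6 and Palb2 (0.94 and 0.93). The T-type genes were followed by Fam73b and Pgap2 (Cacna1g, 0.97 and 0.96), Epb4.1l1 (Cacna1h, 0.98) and Pgap2 and Scarna13 (Cacna1i, 0.98 and 0.96). Pgap2 was thus on the lists of both Cacna1g and Cacna1i. Each of these values is among the highest of 11210 searched over only 8 libraries.

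The upstream sequence of 3 members is given because Cacna1b and Cacna1i moved together over libraries while Cacna1e did not move with them. Each is the 250 bases before a start listed by RefSeq on GRCm38.p6, written 5′ to 3′ on the gene's strand, with capitals for GC boxes. Cacna1b lies at chr2:24763153-24763402 on the minus strand, Cacna1i at chr15:80286988-80287237 on the plus strand and Cacna1e at chr1:154725921-154726170 on the minus strand.
Cacna1b: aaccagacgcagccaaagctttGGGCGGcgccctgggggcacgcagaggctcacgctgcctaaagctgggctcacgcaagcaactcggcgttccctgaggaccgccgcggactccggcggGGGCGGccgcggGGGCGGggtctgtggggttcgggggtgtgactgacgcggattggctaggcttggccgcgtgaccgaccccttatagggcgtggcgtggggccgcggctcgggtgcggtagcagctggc
Cacna1i: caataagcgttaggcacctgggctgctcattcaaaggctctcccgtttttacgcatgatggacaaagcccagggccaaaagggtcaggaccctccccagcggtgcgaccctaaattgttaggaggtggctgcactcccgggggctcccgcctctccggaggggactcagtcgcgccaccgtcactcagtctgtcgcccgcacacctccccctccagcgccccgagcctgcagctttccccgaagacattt
Cacna1e: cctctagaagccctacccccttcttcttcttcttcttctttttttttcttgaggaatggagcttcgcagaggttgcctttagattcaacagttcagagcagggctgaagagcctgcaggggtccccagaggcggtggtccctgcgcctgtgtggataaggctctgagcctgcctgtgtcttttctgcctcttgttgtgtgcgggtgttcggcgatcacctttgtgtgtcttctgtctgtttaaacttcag
The Cacna1b window was 72% G or C with 29 CG dinucleotides and held 3 GC boxes (GGGCGG, either strand). The Cacna1i window was 62.4% G or C with 16 CG dinucleotides, and the Cacna1e window 52% with 6, and neither held that motif. Across all 32851 windows of this length the medians were 52.4% and 6, and 32.7% held a GC box. None of the 3 held a TATA box (TATAAA, in 12.4% of all windows) or a cyclic AMP response element (TGACGTCA, in 1.55%). Windows were found for 5 of the 8 members, with more than 1 start for Cacna1c and Cacna1d. Cacna1b and Cacna1i thus differed in GC boxes within these windows. Any part of these sequences in the members' levels was not tested.

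On mm9, from the GENCODE models for that build, Cacna1b spans chr2:24459407-24618672 and Cacna1e chr1:156239649-156573049, both on the minus strand. Cacna1i spans chr15:80117668-80228709 and Cacna1a chr8:86912339-87164145, both on the plus strand. Cacna1c (chr6:118542314-119146249), Cacna1d (chr14:30853135-31304342), Cacna1g (chr11:94269705-94335414) and Cacna1h (chr17:25511230-25570728) lie on the minus strand. The values are totals over the exons of each gene and do not separate splice forms.

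Pore subunits work with accessory subunits and calcium-handling proteins, and 52 of 54 such genes passed the expression filter. Of these, 0 passed an adjusted p of 0.05 in any of the 3 genotype comparisons by edgeR's quasi-likelihood test, and at an unadjusted p under 0.05 there were 2, 1 and 0 of 52, where 4.34%, 1.64% and 1.23% of all genes tested were under it. Their median log2 fold changes were -0.08 for heterozygotes and -0.01 for homozygotes over WT, and 0.06 between the mutant genotypes. Per kilobase, Cacnb3 was the most abundant beta subunit at 25.0 ± 4.07 CPM (SD, n = 8), ahead of Cacnb1 at 10.1 ± 1.23. Before division by exon length, Cacnb4 had a mean of 80.3 CPM and Cacnb3 of 78.0 CPM, so that lead depends on the lengths. Cacna2d1 was the most abundant alpha2delta subunit per kilobase at 33.3 ± 3.42. Beta subunits carry the pore to the membrane and alpha2delta subunits raise its surface level. The pore subunits of skeletal muscle and retina, Cacna1s and Cacna1f, reached no more than 2.0 and 2.1 CPM.

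Of the accessory genes, Cacng2, which encodes an AMPA receptor partner related to the channel gamma subunits, was at 75.5 to 79.2 CPM in WT, at 47.4 to 68.7 CPM in 1b+/- and at 57.1 to 74.7 CPM in 1b-/-. Both mutant groups lay below WT without overlap, and 12.3% of all genes had no overlap with WT in 1b+/- and 23.6% in 1b-/-. Its log2 fold change was -0.42 (SE 0.17) in 1b+/- against WT, with an unadjusted p of 0.0306 from edgeR's quasi-likelihood test that did not survive adjustment. Ryr2, a calcium release channel of the endoplasmic reticulum, was at 22.5 to 24.7 CPM in WT, at 25.7 to 45.8 CPM in 1b+/- and at 33.3 to 35.3 CPM in 1b-/-. Both mutant groups lay above WT, against the same shares of all genes. Its log2 fold changes were 0.57 (SE 0.21) and 0.54 (SE 0.24), with unadjusted edgeR p-values of 0.0205 and 0.0480, and neither passed after adjustment. The smallest unadjusted p-values of the other lists were those of Camk4 (0.0616), Atp2b1 (0.0780), Calm2 (0.0926), Cacna2d3 (0.488), Cacnb1 (0.576) and Cacna1f (0.799) in 1b+/-, by the same edgeR test. In 1b-/- they were those of Slc8a2 (0.0880), Rem2 (0.161), Cacng2 (0.290), Ppp3r1 (0.394), Cacnb1 (0.488), Cacna1f (0.608) and Cacna2d3 (0.644).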

How the data were processed

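Stranded poly(A) libraries from P7 mouse brain were sequenced as single-end reads. The authors aligned them to mm9 with STAR 2.7.2 and counted reads per gene with featureCounts. The strand setting, the treatment of multi-mapping reads and the annotation release are not given in the sources used here. The deposited values are raw counts per gene, 2947770 to 20878772 in total per library, and genotypes came from the sample labels. Counts were tested with edgeR 4.0.16 in R 4.3.3 (TMM scaling, a filter of 1 CPM in 1 library or more, quasi-likelihood test, genotype as the only term, all 8 libraries in 1 fit, Benjamini-Hochberg threshold 0.05 over all genes tested), with code tested on simulated data. CPM used TMM-scaled totals of the tested genes, and per-kilobase levels the union of exons in GENCODE models for mm9. SE values came from the test statistic and 95% intervals from its moderated degrees of freedom. No pair of libraries agreed within sampling noise. Alternatives were other scalings and filters, edgeR's likelihood ratio test, DESeq2 1.42.0, sex as a covariate, 1 sex only and each library left out.

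The members and gene lists were chosen with earlier results of these data known. Genes named are the members, Scn1a, the accessory or calcium-handling gene with the smallest unadjusted p per list against WT (and any past the threshold), the 2 genes most correlated with each member (1 of them, for Cacna1h, is not reported here) and, chosen after their values were seen, tissue markers and the most abundant accessory subunits.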

Additional observations from a re-analysis of the deposited data

Results flagged for a closer look

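In 3 of the 8 members, 1 of the 4 1b+/- libraries stood apart from the others by Dixon's criterion, in which the gap to the nearest library is divided by the range of the group and compared with its 95% critical value. Cacna1e was at 257 CPM in 1b+/- replicate 2, with a gap of 0.903 of the range. Cacna1g was at 42.8 CPM in 1b+/- replicate 1 (0.893), and Cacna1i at 16.8 CPM in the same library (0.870). Chance alone puts about 1 in 20 groups past this limit, and the members are correlated over libraries. In 1b+/- replicate 1 the midbrain and hindbrain markers summed to 62.8 CPM and in 1b+/- replicate 2 the choroid plexus markers to 109 CPM, and the part of either in these values was not tested.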

How the results depend on the processing

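The count of pore subunits called, and of accessory and calcium-handling genes called, was 0 under each alternative run, and 0 of 400 single-member values passed (smallest adjusted p 0.901). Of those 400, 371 kept their direction. The share of all genes called in each alternative fit is not reported here. Outside the leave-one-out fits, the log2 fold change of Cacna1c in 1b+/- against WT turned from -0.00075 to 0.0029 with filterByExpr, 0.031 with upper quartile scaling, 0.044 with sex as a covariate and 0.051 in males only. That of Cacna1d in 1b-/- against 1b+/- turned to 0.029 with sex as a covariate and 0.033 in females only.

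With each library left out in turn, values in 1b+/- against WT ranged from -0.063 to 0.15 for Cacna1a, -0.048 to 0.20 for Cacna1b, -0.040 to 0.041 for Cacna1c, -0.012 to 0.12 for Cacna1d, -0.12 to 0.086 for Cacna1e, -0.22 to 0.22 for Cacna1g, -0.32 to 0.21 for Cacna1h and -0.10 to 0.12 for Cacna1i. The turns of Cacna1a, Cacna1b and Cacna1i came without 1b+/- replicate 1, those of Cacna1d and Cacna1e without 1b+/- replicate 2, that of Cacna1g without 1b+/- replicate 1 or WT replicate 1, and that of Cacna1h without 1b+/- replicate 2 or WT replicate 2. In 1b-/- against WT values ranged from -0.038 to 0.075 for Cacna1d, -0.075 to 0.50 for Cacna1g, -0.16 to 0.37 for Cacna1h and -0.096 to 0.54 for Cacna1i. Cacna1g and Cacna1i turned without 1b-/- replicate 2, Cacna1h without that library or WT replicate 1, and Cacna1d without 1b-/- replicate 1 or WT replicate 2. Between 1b-/- and 1b+/- values ranged from -0.0049 to 0.20 for Cacna1a, -0.11 to 0.27 for Cacna1b, -0.085 to 0.029 for Cacna1d, -0.11 to 0.46 for Cacna1g and -0.15 to 0.48 for Cacna1i. The cause of these changes was not tested. No paired analysis was possible because the labels give no shared replicate numbers. Low counts limit Cacna1i most, with 36 to 254 reads per library.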
